A study of Mus musculus with 2 samples.

Results

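The Ms4a family was followed in immune cells sorted from mouse gliomas, through 8 of its members: Ms4a1, Ms4a4a, Ms4a4b, Ms4a4c, Ms4a6b, Ms4a6c, Ms4a6d and Ms4a7. These were the rows of both count matrices that carry a member's symbol, 8 of 31053 genes and 8 of the 19 genes there that are named Ms4a, and they were read in 17711 droplet barcodes that held at least 1000 UMIs (unique molecular identifiers, each standing for 1 captured RNA molecule) and at most 17% mitochondrial UMIs. Mice received 100000 GL261 cells, a syngeneic mouse glioma line, in the brain, and live CD45.2+ cells were sorted from the tumor-bearing hemisphere after 10 days for droplet single-cell RNA sequencing. One library came from WT mice, which carried no transgene, and the other from CD169-DTR mice, in which 1 copy of the CD169 gene, Siglec1, is replaced by the human diphtheria toxin receptor, so that the receptor is made by cells that use the Siglec1 promoter. Mice of both groups were male, on the C57BL/6 background, 8 to 12 weeks old when the tumor was placed, and both received diphtheria toxin (DT) 1 day before and 4 days after the tumor cells, so WT mice were exposed to the toxin without the receptor. Cells of 3 mice per group were pooled into 1 library, so no value below has a replicate check, and every interval is a 95% interval that covers counting error only.

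MS4A proteins are small membrane proteins that cross the membrane several times, with both ends inside the cell. The best known is Ms4a1, which encodes CD20, the B cell surface antigen that therapeutic antibodies use to remove B cells. Other members are known from T cells and NK cells (Ms4a4b) or from monocytes, macrophages and dendritic cells (Ms4a4a, Ms4a6c, Ms4a6d and Ms4a7), where they sit in complexes with signaling receptors.

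All 8 members lay close together on chromosome 19 (GRCm38, GENCODE annotation), between positions 11249675 and 11604849, a span of 355 kb that held 12 protein-coding genes. Ms4a5, Ms4a14, Gm8369 and Ms4a4d lay between members. Ms4a1 (11249675 to 11266241, minus strand), Ms4a7 (11321039 to 11336146, minus) and Ms4a4a (11375523 to 11392790, plus) came first in the order of position. They were followed by Ms4a4c (11404770 to 11427246, plus), Ms4a4b (11443553 to 11467055, plus), Ms4a6c (11469366 to 11482192, plus), Ms4a6b (11516512 to 11531256, plus) and Ms4a6d (11586604 to 11604849, minus). Several of these are near copies of each other, and the counted reads come from transcript ends. In the last 500 bases of the annotated transcripts, 11.1% of 50-base words of Ms4a4c also occurred in Ms4a4b or Ms4a4d, and 4.22% of those of Ms4a4b in Ms4a4c or Gm8369. The share was 7.76% for Ms4a6c and 4.31% for Ms4a6b, with Ms4a6b and Ms4a6c among each other's matches, and 0% for the other 4 members. A part of the reads of Ms4a4b, Ms4a4c, Ms4a6b and Ms4a6c could therefore have been left uncounted or assigned to a copy.

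The closest copies were also alike upstream of their RefSeq starts. For Ms4a4c and Ms4a6b these starts, and the bases printed below, lie inside the GENCODE gene spans given above. RefSeq promoter windows (GRCm38.p6) were found for 6 of the 8 members, and the 250 bases before each start were aligned between all pairs. The 2 pairs below stood apart: Ms4a4c and Ms4a4b were identical in 117 of 133 aligned columns (88%), and Ms4a6c and Ms4a6b in 148 of 180 (82.2%), whereas the next best pair, 2 starts of Ms4a7, aligned over 46 columns with 31 identical. They are shown because the genes of each pair had different cell distributions (below). Capitals mark the bases that differ from the partner or have no partner base, and the last columns of each alignment that reach into an annotated exon are left out (1 column of the first pair, 36 of the second).
Ms4a4c, chr19:11407528-11407659, plus strand: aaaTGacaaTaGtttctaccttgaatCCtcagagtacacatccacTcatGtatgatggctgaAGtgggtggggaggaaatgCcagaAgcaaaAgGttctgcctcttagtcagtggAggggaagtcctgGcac
Ms4a4b, chr19:11443422-11443552, plus strand: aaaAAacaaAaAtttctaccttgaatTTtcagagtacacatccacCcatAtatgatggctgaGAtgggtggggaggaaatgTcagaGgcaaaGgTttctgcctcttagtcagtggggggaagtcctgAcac
Ms4a6c, chr19:11469193-11469330, plus strand: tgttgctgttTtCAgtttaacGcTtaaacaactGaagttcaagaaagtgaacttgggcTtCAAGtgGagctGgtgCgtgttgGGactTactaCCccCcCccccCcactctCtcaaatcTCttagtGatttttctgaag
Ms4a6b, chr19:11518311-11518452, plus strand: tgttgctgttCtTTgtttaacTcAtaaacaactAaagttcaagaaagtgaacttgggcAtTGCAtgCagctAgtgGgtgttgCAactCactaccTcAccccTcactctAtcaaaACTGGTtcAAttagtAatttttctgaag

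Short motifs were searched on both strands of the same 250 bases. The letters GAGGAA, the core bound by the myeloid and B cell factor PU.1, occurred in the windows of Ms4a4b and Ms4a4c and in 23.3% of all 32817 promoters. The letters TTCNNNGAA, the spaced palindrome of STAT factors, occurred in no member window and in 7.01% of all promoters. These letters are a description of the windows and say nothing of binding.

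The WT library held 10107 cells with a median of 7776 UMIs, and the CD169-DTR library 7604 cells with a median of 8099.5. Cells were clustered without any Ms4a gene, so that the members did not define the classes in which they were read, and clusters were named "-like" from marker lists. Siglec1, the targeted gene, was at 37.9 CPM (UMIs per 1000000 UMIs of the class) in infiltrating macrophage-like cells of WT mice and 11.9 CPM in those of CD169-DTR mice, and at 19 and 5.63 CPM in microglia-like cells. Infiltrating macrophage-like cells made up 24.5% of WT and 10.6% of CD169-DTR immune-like cells (2266 and 735 cells), cDC2-like cells 9.28% and 2.86% (860 and 199), and microglia-like cells 51.2% and 77% (4744 and 5363). Of 4 markers of border-associated macrophages, Lyve1 was at 0 CPM in the infiltrating macrophage-like class of both libraries. Cd163 was at 0.434 and 2.15 CPM there (WT and CD169-DTR), Folr2 at 1.36 and 5.13 and Mrc1 at 15.6 and 25.7. The list held further markers, of which Pf4 and F13a1 were leading genes of the infiltrating macrophage-like clusters C2 and C4 described below. Despite the CD45.2 gate, 638 WT and 517 CD169-DTR cells were endothelial-like, pericyte-like or other non-immune cells, and they serve below as the background of free RNA. The libraries shared 21 cell barcodes.

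The 8 members were spread differently over 13 immune classes and the non-immune cells. Ms4a1 was read in B cell-like cells, Ms4a4b in T cell-like and NK cell-like cells, and Ms4a4c, Ms4a6c and Ms4a6d in infiltrating macrophage-like and cDC2-like cells. Ms4a7 and, at a much lower level, Ms4a4a were highest in infiltrating macrophage-like cells, while Ms4a6b was shared between T cell-like and myeloid cells. With both libraries summed, 3 of the 8 members had their highest level in infiltrating macrophage-like cells, against 2.76% of 12791 genes, and 1 of 8 in B cell-like cells, against 5.24%.

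**Figure D1:**
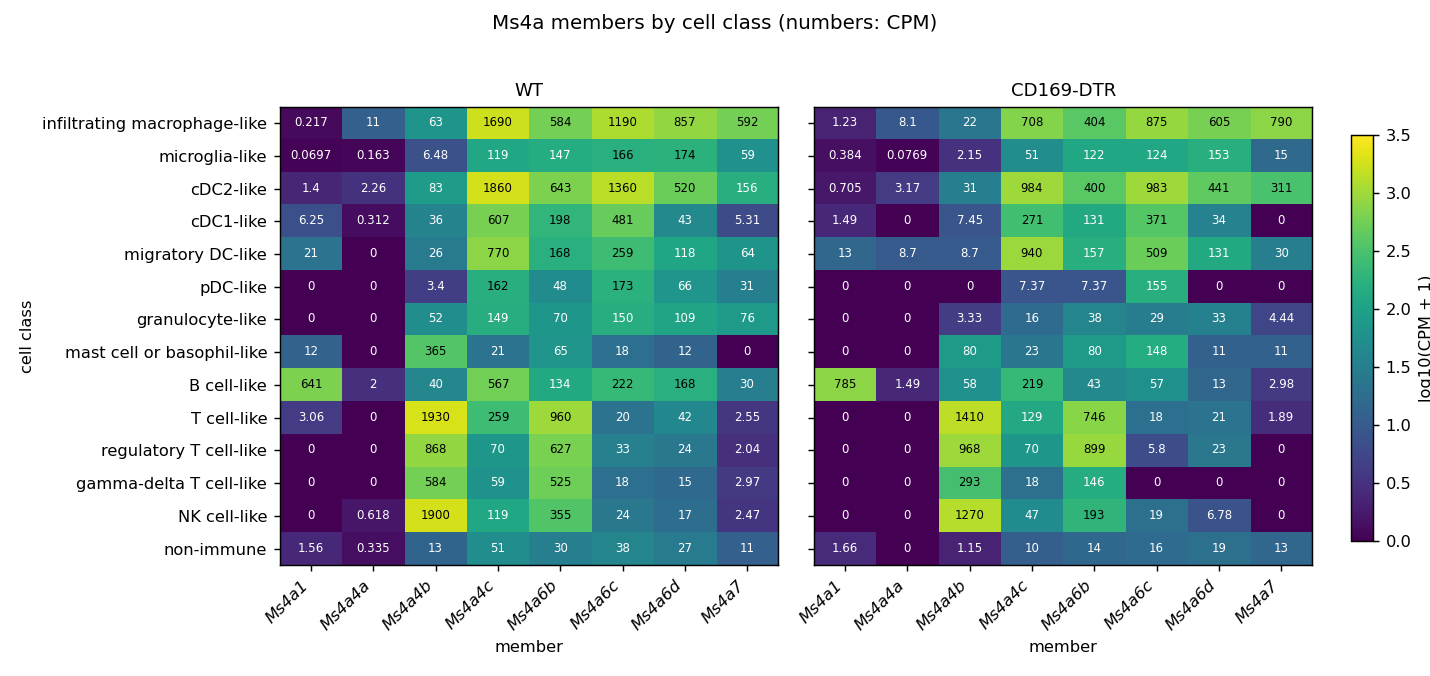
Level of the 8 members (columns) in each cell class (rows) of the WT library (left) and the CD169-DTR library (right), with the CPM printed in each field and color giving log10(CPM + 1). Within its own column, Ms4a1 is highest in the B cell-like row (641 and 785 CPM) and Ms4a7 in the infiltrating macrophage-like row (592 and 790 CPM). Ms4a4b is highest in the T cell-like and NK cell-like rows. Other members are counted in the same rows, such as Ms4a4c in the WT B cell-like (567 CPM) and infiltrating macrophage-like rows (1690 CPM).

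Ms4a1, the gene of CD20, was at 641 CPM (573 to 715) in the 72 B cell-like cells of WT mice and at 785 CPM (719 to 855) in the 124 of CD169-DTR mice. The next class, migratory DC-like cells, was at 20.6 CPM in WT, 31.1-fold lower, and 24 of its 34 UMIs there came from 1 cell. After every cell was thinned to 4500 UMIs, 82.9% of WT (66.4 to 93.4) and 92% of CD169-DTR B cell-like cells (80.8 to 97.8) held a Ms4a1 UMI, against 0.359% and 0.654% of non-immune cells. The thinning left out 37 of the 72 and 74 of the 124 B cell-like cells, which were shallower than that. On the log2 scale, the level was lower in WT by 0.29 (interval -0.50 to -0.09). Myeloid members were counted in B cell-like cells too, with Ms4a4c at 567 (WT) and 219 CPM (CD169-DTR), Ms4a6c at 222 and 56.7 CPM and Ms4a6d at 168 and 13.4 CPM. For Ms4a6d, 31 of the 84 WT UMIs came from 1 cell. The same cells held Ly6c2 at 571 and 13.4 CPM and Cd68 at 289 and 118 CPM, and the part of other cells' RNA in these levels was not tested. Genes whose level over 29 clusters was most like that of Ms4a1 were Fcmr (r = 0.933) and Cd79a (0.931), both known from B cells.

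Ms4a4b, a T cell membrane protein known to tune T cell signals, was at 1930 CPM (1870 to 2000) in T cell-like and 1900 CPM (1840 to 1970) in NK cell-like cells of WT mice, and these intervals overlapped. In the CD169-DTR library it was at 1410 CPM (1340 to 1490) and 1270 CPM (1180 to 1370). Regulatory T cell-like cells followed with 868 and 968 CPM, and gamma-delta T cell-like cells with 584 and 293 CPM. It was therefore the leading member in lymphocytes other than B cells, with 60% (WT) and 60.7% (CD169-DTR) of the family's UMIs in T cell-like cells and 78.6% and 82.7% in NK cell-like cells.

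Within the lymphocytes Ms4a4b was highest in a small NK cell-like cluster led by Gzmb, Xcl1 and Ifng (3100 CPM in 52 WT cells, 2560 CPM in 11 CD169-DTR cells), compared with 1650 and 1100 CPM in the larger NK cell-like cluster led by Gzma and Klra4. The T cell-like cluster led by Cd8b1 was at 2110 and 1640 CPM and the other T cell-like cluster at 1620 and 1120 CPM. Nearly every such cell held a UMI: at 4500 UMIs per cell, 99.5% of WT and 96.1% of CD169-DTR T cell-like cells and 100% and 98.6% of NK cell-like cells did so, against 2.87% and 0.436% of non-immune cells. Mast cell or basophil-like cells were at 365 CPM (303 to 435) in WT (54 cells) and 79.9 CPM, on 7 UMIs, in CD169-DTR (13 cells). Free RNA was estimated at 12.2 CPM in these WT cells. At 4500 UMIs per cell, 0 of the 16 WT cells that were deep enough held a UMI. Ncr1, an NK cell marker, was at 101 CPM in the WT class, and the part of other cells was not tested. Low levels were also counted in cDC2-like cells (83.2 and 31.4 CPM) and infiltrating macrophage-like cells (62.8 and 22.5 CPM), above the 7.08 and 9.41 CPM in WT, and 1.33 and 1.43 CPM in CD169-DTR, that free RNA was estimated to add. In these 2 classes its near copy Ms4a4c was at 1860 and 984 CPM (cDC2-like) and 1690 and 708 CPM (infiltrating macrophage-like). The part of misassigned Ms4a4c reads in these Ms4a4b levels, and in their ratios below, was not tested. In microglia-like cells the 6.48 CPM of Ms4a4b in WT lay below the estimate for free RNA (8.43 CPM). The genes most like Ms4a4b over the clusters were Gm37387 (r = 0.956), Skap1 (0.946), an adaptor of the T cell receptor, and Il2rb (0.932), a receptor chain for interleukin 2 and interleukin 15.

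Ms4a6b crossed the lines between lineages. In WT mice it was at 960 CPM (917 to 1000) in T cell-like cells, 643 CPM (627 to 659) in cDC2-like cells, 627 CPM (559 to 701) in regulatory T cell-like cells and 584 CPM (573 to 595) in infiltrating macrophage-like cells. The corresponding values of CD169-DTR mice were 746, 400, 899 and 404 CPM, so regulatory T cell-like cells came first there, on 26 cells. NK cell-like cells were lower, at 355 and 193 CPM, and microglia-like cells at 147 and 122 CPM. Of the member pairs, Ms4a6b correlated best with Ms4a4b over the 29 clusters (r = 0.68) and only weakly with its near copy Ms4a6c (r = 0.22). These r values describe clusters that share 2 libraries, and no test was made.

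Ms4a6c, in contrast, was mostly read in myeloid cells. It was at 1360 CPM (1340 to 1390) in cDC2-like and 1190 CPM (1170 to 1210) in infiltrating macrophage-like cells of WT mice, and at 983 and 875 CPM in CD169-DTR mice. In cDC1-like cells 481 and 371 CPM were counted, and in microglia-like cells 166 and 124 CPM. T cell-like cells held 20.4 CPM in WT, less than the 53.6 CPM estimated for free RNA, and 18 CPM in CD169-DTR. Ms4a6c had the widest reach among macrophages: at 4500 UMIs per cell, 94.7% of WT (93.4 to 95.7) and 91.2% of CD169-DTR infiltrating macrophage-like cells (88.7 to 93.2) held a UMI, against 8.8% and 2.61% of non-immune cells. Ly6i (r = 0.904), of the Ly6 family next to Ly6c, Tep1 (0.894) and Sap30 (0.888) were the genes most like it.

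Ms4a4c reached the highest level of any member in myeloid cells of WT mice, with 1860 CPM (1830 to 1890) in cDC2-like and 1690 CPM (1670 to 1710) in infiltrating macrophage-like cells. In CD169-DTR mice the same classes were at 984 CPM (948 to 1020) and 708 CPM (691 to 725). Migratory DC-like cells were at 770 and 940 CPM and cDC1-like cells at 607 and 271 CPM. UMI levels come from transcript ends and were not scaled by gene length.

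Lymphocytes held some Ms4a4c as well: T cell-like cells were at 259 CPM (237 to 283) in WT and 129 CPM (108 to 152) in CD169-DTR, above the free RNA estimates of 72.1 and 10.3 CPM. A Ms4a4c UMI was found in 52.1% and 27.1% of T cell-like cells at 4500 UMIs per cell, against 10.1% and 2.61% of non-immune cells. The T cell-like cluster led by Cd8b1 had more of it (319 and 184 CPM) than the other (152 and 55.2 CPM). Ms4a4c is a near copy of Ms4a4b, which the same cells held at over 1000 CPM, and the part of misassigned reads in the T cell level was not tested. A530040E14Rik (r = 0.871), Sp140 (0.823), a chromatin reader of immune cells, and Ddx4 (0.812) were most like Ms4a4c over the clusters.

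Ms4a6d was led by infiltrating macrophage-like cells, at 857 CPM (844 to 871) in WT and 605 CPM (589 to 620) in CD169-DTR, followed by cDC2-like cells at 520 and 441 CPM. It was low in cDC1-like cells (42.8 and 34.3 CPM), which had 481 and 371 CPM of Ms4a6c. In microglia-like cells it was the leading member, with 174 CPM (170 to 178) in WT and 153 CPM (149 to 156) in CD169-DTR, and a UMI in 49.1% and 46.4% of cells at 4500 UMIs. Apobec1 (r = 0.869), Gm5431 (0.860) and Cfb (0.860), complement factor B, were most like it.

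Ms4a7, a member known from macrophages, was at 592 CPM (581 to 603) in infiltrating macrophage-like cells of WT mice and 790 CPM (772 to 808) in those of CD169-DTR mice. The next class, cDC2-like cells, was at 156 CPM (148 to 164) and 311 CPM (291 to 332). Microglia-like cells were at 58.6 and 15.2 CPM, and cDC1-like cells at 5.31 CPM in WT, where 5.21 CPM of free RNA were estimated, and at 0 in CD169-DTR. Over the clusters Ms4a7 was most like Msr1 (r = 0.894), a scavenger receptor, Cstb (0.876), a cathepsin inhibitor, and Stra6l (0.839).

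Ms4a4a, known from alternatively activated macrophages, was the scarcest member, with 200 UMIs in all infiltrating macrophage-like cells of WT mice (10.9 CPM, 9.4 to 12.5) and 79 in those of CD169-DTR mice (8.1 CPM, 6.41 to 10.1). These held 85.5% and 83.2% of its UMIs in named cells. Levels in cDC2-like cells were 2.26 and 3.17 CPM, and microglia-like cells were at 0.163 and 0.0769 CPM. The first place of migratory DC-like cells in CD169-DTR mice (8.7 CPM) rested on 2 UMIs. Sirpb1a (r = 0.865), Clec4a1 (0.839) and Tnfsf13os (0.835) were most like Ms4a4a.

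The infiltrating macrophage-like class held 3 clusters, and the members set them apart. Cluster C2 was led by Gpnmb, Pf4, Fabp5 and Arg1, genes known from lipid-laden and tumor-associated macrophages, cluster C4 by Chil3, Clec4e, F10 and Vcan, known from inflammatory monocytes, and cluster C19 by Ear2, Treml4 and Ace, known from patrolling monocytes. Ms4a7 was at 1060 CPM in C2, 265 CPM in C4 and 21.5 CPM in C19 of WT mice, and at 1160, 365 and 9.93 CPM in CD169-DTR mice. Ms4a4c, Ms4a6b, Ms4a6c and Ms4a6d had another order, with C4 first.

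Ms4a4c was at 2330 CPM in C4, 977 CPM in C2 and 391 CPM in C19 of WT mice, and at 1370, 329 and 132 CPM in CD169-DTR mice. Ms4a6d followed the same order (1150, 537 and 138 CPM in WT, 850, 502 and 56.3 CPM in CD169-DTR). Ms4a6c and Ms4a6b were also highest in C4 (1570 and 815 CPM in WT), but C19 came second with 893 and 484 CPM, above C2 with 734 and 295 CPM. In CD169-DTR mice C2 was slightly above C19 for both (638 against 561 CPM, and 248 against 222 CPM). C19 thus had Ms4a6c and Ms4a6b with little Ms4a6d and next to no Ms4a7 in both libraries.

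**Figure D2:**
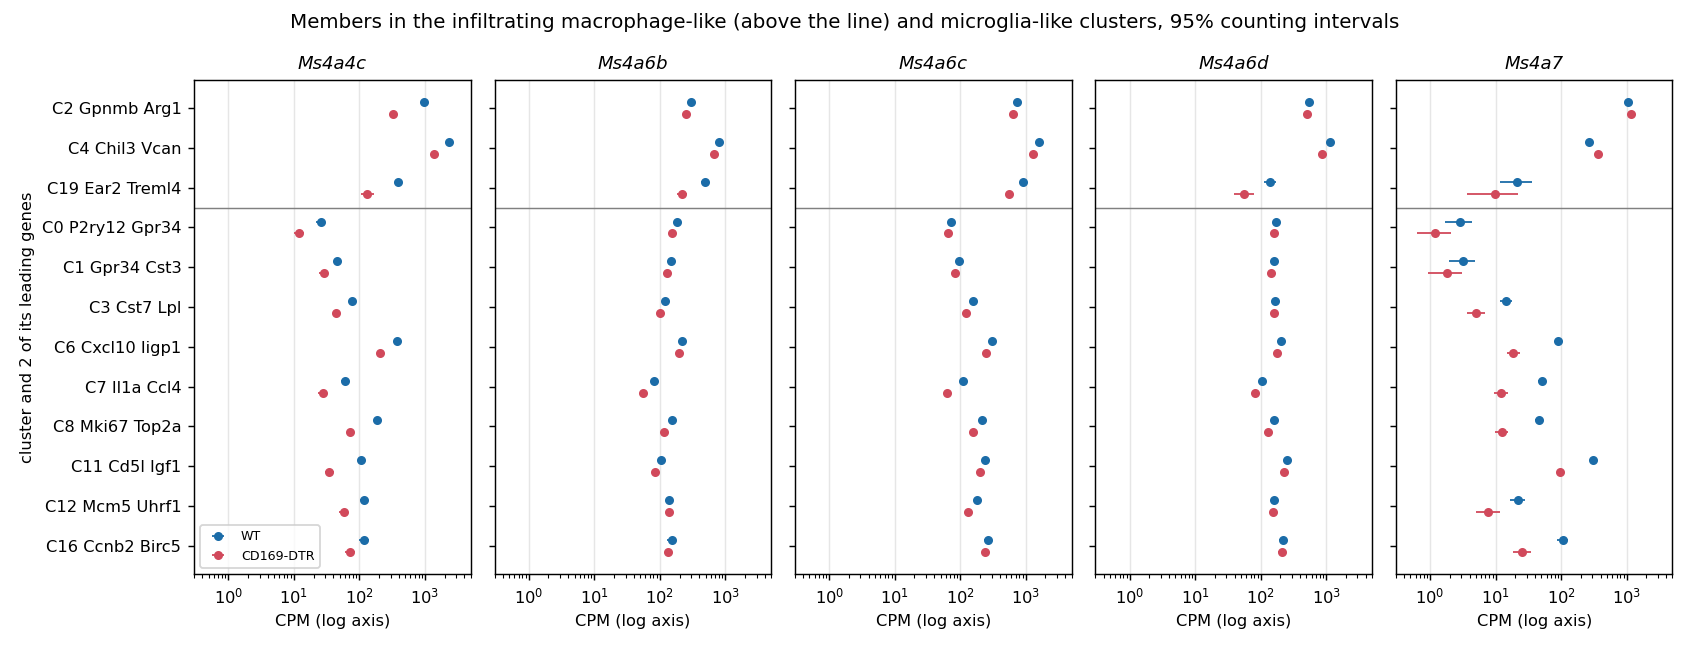
CPM (log axis) of Ms4a4c, Ms4a6b, Ms4a6c, Ms4a6d and Ms4a7 in the 3 infiltrating macrophage-like clusters (above the line) and the 9 microglia-like clusters (below it), with WT in blue, CD169-DTR in red and 95% counting intervals as lines. Ms4a7 spans from the free RNA background in the homeostatic microglia-like cluster C0 (1.2 CPM) to 1160 CPM in C2, whereas Ms4a6d keeps within 81.3 to 255 CPM over the microglia-like clusters.

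Single cells showed the same order of Ms4a4c and Ms4a7. After thinning to 4500 UMIs, 70.1% of WT cells of C2 held UMIs of both genes, 17.4% of Ms4a7 alone and 10.8% of Ms4a4c alone. In C4, 35.8% held both, 61.2% Ms4a4c alone and 1.58% Ms4a7 alone. In C19 both were found in 2.7%, Ms4a4c alone in 60.8% and Ms4a7 alone in 1.35%. Cells with Ms4a7 and no Ms4a4c UMI were more frequent in CD169-DTR mice, at 37.2% of C2 and 7.39% of C4, and cells with Ms4a4c alone made up 2.96% and 46.1%. The shares cover 586 of 1126 WT and 304 of 339 CD169-DTR cells of C2, since the remaining cells were shallower than 4500 UMIs, and the median depth of that cluster was 4668.5 UMIs in WT and 16033 in CD169-DTR.

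**Figure D3:**
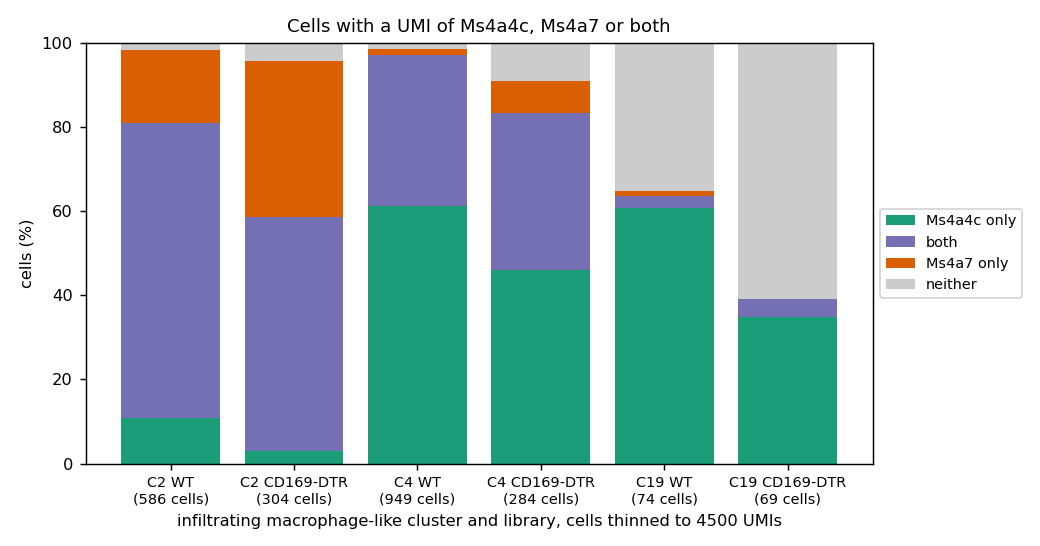
Share of cells (%) with a UMI of Ms4a4c alone, of both genes, of Ms4a7 alone or of neither, in the 3 infiltrating macrophage-like clusters of each library, cells thinned to 4500 UMIs. Ms4a7 is present in 87.5% of WT and 92.8% of CD169-DTR cells of C2, in 37.4% and 44.7% of C4 and in 4.05% and 4.35% of C19.

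Among microglia-like cells, the brain's resident macrophages, Ms4a4c, Ms4a6c and Ms4a7 were higher in some activated clusters than in the homeostatic cluster C0. Cluster C0, led by Slc2a5 and P2ry12, had 25.8 (WT) and 12 CPM (CD169-DTR) of Ms4a4c, 71.8 and 66 CPM of Ms4a6c and 2.84 and 1.2 CPM of Ms4a7, the last on 19 and 13 UMIs. Free RNA was estimated to add 83.7 and 11.7 CPM of Ms4a4c, 62.2 and 15.3 CPM of Ms4a6c and 16.2 and 5.95 CPM of Ms4a7 there, so the levels of Ms4a4c and Ms4a7 in C0 are read as background. Ms4a6b did not have this order, with 181 CPM in C0 against 121 CPM in C3, 103 CPM in C11 and 82.3 CPM in C7 of WT mice. Cluster C6, led by Cxcl13, Iigp1 and Cxcl10 and holding all 8 interferon markers, had the highest microglial Ms4a4c (373 and 207 CPM) and Ms4a6c (300 and 249 CPM). Ms4a7 instead was highest in cluster C11, led by Cd5l, Igf1 and Spp1, with 304 and 97.5 CPM, against 89.5 and 18.6 CPM in C6. As a ratio of the highest to the lowest cluster, Ms4a6d varied least of these members. It went from 103 to 255 CPM over the 9 clusters in WT and from 81.3 to 225 CPM in CD169-DTR. Ms4a6b went from 82.3 to 215 CPM and from 55.5 to 198 CPM.

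WT and CD169-DTR mice were then compared within each class, the comparison of mice without and with the receptor after DT. In infiltrating macrophage-like cells, Ms4a4b and Ms4a4c were 1.48 (1.27 to 1.70) and 1.25 (1.22 to 1.29) higher in WT on the log2 scale. The part of misassigned Ms4a4c reads in the Ms4a4b value was not tested. Ms4a6b (0.53, 0.48 to 0.58), Ms4a6d (0.50, 0.46 to 0.55), Ms4a6c (0.44, 0.41 to 0.48) and Ms4a4a (0.42, 0.04 to 0.82) were also higher in WT, and Ms4a7 was lower by 0.42 (-0.46 to -0.37). Of the 7 members with 20 or more UMIs in the class, 2 were higher in WT by 1.5-fold or more, against 8.5% of 11742 genes, and 0 were lower by as much, against 7.63%. The median log2 ratio was 0.50 over these members and -0.05 over all genes.

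Interferon genes differed in the same comparison. The 8 genes of the interferon list summed to 8090 CPM in WT and 2870 CPM in CD169-DTR infiltrating macrophage-like cells, Ly6c2 was at 1800 and 712 CPM and Gpnmb at 832 and 1140 CPM. Their part in the difference of the members was not tested. Shares of cells at equal depth had the same directions: a Ms4a4c UMI was in 89.6% of WT (88 to 91.1) and 67.3% of CD169-DTR cells (63.5 to 70.9), and a Ms4a7 UMI in 54.1% (51.7 to 56.6) and 62.7% (58.9 to 66.4). These shares leave out the shallower cells, 657 of 2266 in WT and 78 of 735 in CD169-DTR, and 540 of the WT cells left out belonged to C2. At 1000 UMIs per cell, where no cell was left out, a Ms4a7 UMI was in 34.6% (32.6 to 36.6) and 37.8% (34.3 to 41.4), and these intervals overlapped.

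How far the macrophage difference lay within clusters depended on how the clusters were drawn. In the clusters above, the log2 ratio of Ms4a4c was 1.57 in C2, 0.76 in C4 and 1.56 in C19, and that of Ms4a7 was -0.13 in C2 (-0.18 to -0.08), -0.46 in C4 (-0.56 to -0.36) and 1.11 in C19 (-0.36 to 2.78). When the libraries were merged without integration, 1086 WT but only 128 CD169-DTR cells fell into a cluster led by Slfn4, F10 and Ly6c2, and a Gpnmb-led cluster held 412 and 302 cells. Within the 4 macrophage-like clusters of that clustering the log2 ratio of Ms4a4c was 0.43, 0.50, 0.70 and 0.69, all above 0 by their intervals. Ms4a7 was 0.10 higher in WT in the Slfn4-led cluster (-0.01 to 0.23), 0.09 lower in the Gpnmb-led one (-0.14 to -0.03), 1.05 lower in the one led by Retnla and Vcan (-1.18 to -0.91) and 0.73 higher in the one led by Ear2 (-0.17 to 1.67). With every merged cluster given the same weight in both libraries, Ms4a4c was 0.50 higher in WT and Ms4a7 lower by 0.13.

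In cDC2-like cells the members had the same signs: Ms4a4b was 1.41 (1.09 to 1.74), Ms4a4c 0.92 (0.86 to 0.98), Ms4a6b 0.68 (0.59 to 0.78), Ms4a6c 0.47 (0.41 to 0.53) and Ms4a6d 0.24 (0.15 to 0.33) higher in WT on the log2 scale. Ms4a7 was lower by 1.00 (-1.12 to -0.88), with a UMI in 19.5% of WT (16.7 to 22.5) and 35% of CD169-DTR cells (28.1 to 42.4) at equal depth. For Ms4a4a (-0.49, -1.68 to 0.82) a difference was not detectable on 21 and 9 UMIs. Of 7 members, 3 were higher in WT by 1.5-fold or more, against 9.88% of 10554 genes, and 1 was lower, against 9.94%. Genes known from macrophages were counted in the same cells: Mrc1 was at 18.9 CPM in WT and 61 CPM in CD169-DTR, Trem2 at 191 and 377 CPM, Fcgr3 at 142 and 251 CPM and Cd68 at 411 and 500 CPM, while Gpnmb was at 24.6 and 20.1 CPM. Their part in the Ms4a7 difference was not tested.

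In microglia-like cells Ms4a7 had the opposite sign and was 1.94 higher in WT (1.83 to 2.06), a difference between classes that was not tested. Ms4a7 was higher in WT in C6 (2.27, 1.91 to 2.63), C7 (2.07, 1.67 to 2.48) and C11 (1.64, 1.48 to 1.80). A difference was not detectable in C1 (0.83, -0.26 to 1.99), and in C0 and C1 the Ms4a7 UMIs of both libraries were fewer than expected from free RNA. When the libraries were merged without integration, 3 microglia-like clusters had intervals that included 0, with log2 ratios of 1.14 (-0.07 to 2.43), -0.31 (-0.95 to 0.32) and 0.44 (-0.28 to 1.16). A Ms4a7 UMI was found in 7.53% of WT (6.74 to 8.38) and 2.43% of CD169-DTR cells (2.02 to 2.91) at equal depth. In non-immune cells it was 3.23% (1.93 to 5.06) and 1.74% (0.755 to 3.41), so the CD169-DTR share lay within the interval of the background. Free RNA was estimated at 9.68 of the 58.6 CPM in WT and 3.68 of the 15.2 CPM in CD169-DTR.

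Ms4a4b (1.59, 1.27 to 1.92) and Ms4a4c (1.21, 1.15 to 1.28) were counted at higher levels in WT microglia-like cells as well, and Ms4a6c (0.42, 0.38 to 0.47), Ms4a6b (0.26, 0.21 to 0.31) and Ms4a6d (0.19, 0.14 to 0.23) less so. The Ms4a4b levels, 6.48 CPM in WT and 2.15 CPM in CD169-DTR, were close to or below the free RNA estimates of 8.43 and 1.96 CPM, and are read as background. With free RNA subtracted, the log2 ratio of Ms4a4c was 0.67. That subtraction can remove too much, since in WT cells of C0 the estimate for Ms4a4c (83.7 CPM) exceeded the 25.8 CPM counted. Of 7 members, 3 were higher in WT by 1.5-fold or more, against 3.77% of 13731 genes, and 1 was lower, against 4.17%. The lower one was Ms4a1, on 3 UMIs in WT and 20 in CD169-DTR, 8 of them in 1 cell. With free RNA subtracted, 2 of the 5 members that could be compared were higher in WT by 1.5-fold or more, against 3.24%. Alongside, the interferon list was at 2610 and 1680 CPM in microglia-like cells, and Ly6c2, a monocyte marker, at 25.4 and 5.88 CPM. Their part in the differences was not tested.

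**Figure D4:**
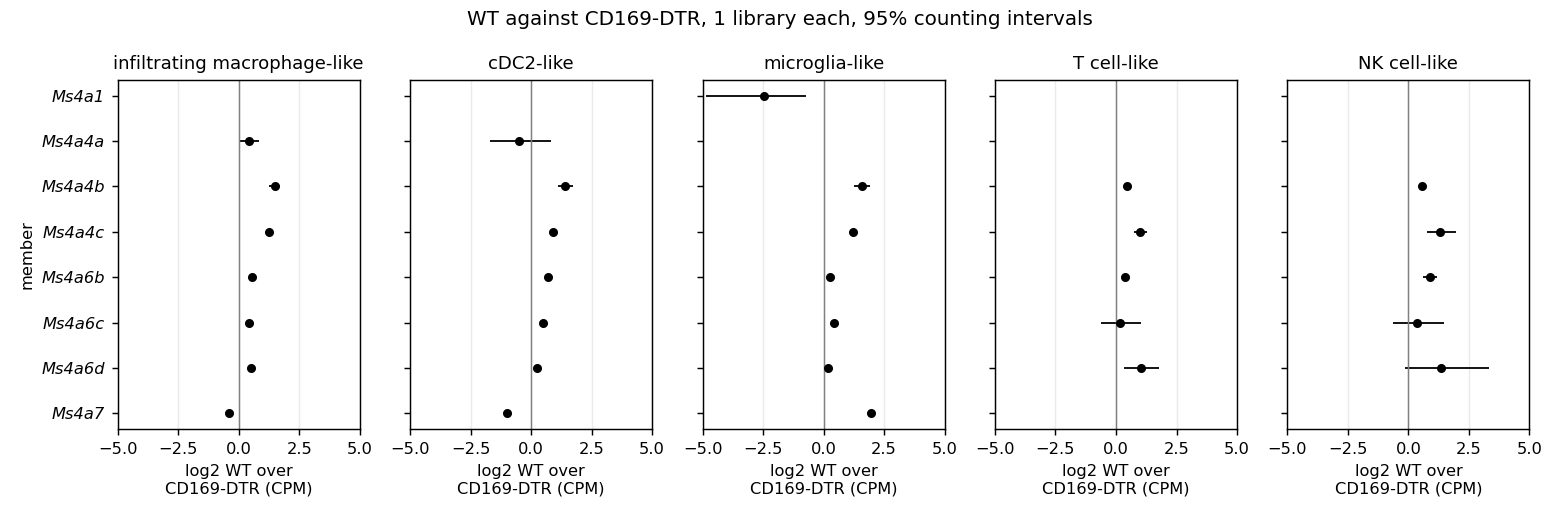
Log2 ratio of CPM, WT over CD169-DTR, for each member in 5 classes, with 95% counting intervals as lines and no point where a library had too few UMIs. Ms4a7 lies left of 0 in the infiltrating macrophage-like (-0.42) and cDC2-like (-1.00) panels and right of it in the microglia-like panel (1.94), while Ms4a4c is right of 0 in all 5.

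T cell-like cells of WT mice had more of Ms4a4b (0.45, 0.36 to 0.54), Ms4a6b (0.36, 0.24 to 0.48), Ms4a4c (1.01, 0.73 to 1.29) and Ms4a6d (1.02, 0.33 to 1.77), the last on 83 and 22 UMIs at a level close to the free RNA estimate. Of 5 members counted, 2 were higher in WT by 1.5-fold or more, against 12.8% of 8137 genes, and 0 were lower, against 6.6%. In NK cell-like cells the log2 ratios were 0.58 (0.46 to 0.69) for Ms4a4b, 0.88 (0.59 to 1.18) for Ms4a6b and 1.32 (0.75 to 1.95) for Ms4a4c. Free RNA was estimated at 75.3 of the 119 CPM of Ms4a4c in WT and 9.77 of the 47.4 CPM in CD169-DTR NK cell-like cells. Its subtraction left 48.3 and 40.4 CPM. In the WT cells the estimate exceeded the level counted for Ms4a6c (55.9 against 24.1 CPM), so the subtraction can remove too much. The interferon list was at 3630 and 1220 CPM in T cell-like cells and 1890 and 590 CPM in NK cell-like cells. Regulatory T cell-like cells had the other sign for Ms4a6b (-0.52, -0.80 to -0.23), on 39 and 26 cells.

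Cells with and without a Siglec1 UMI were compared in each library at 4500 UMIs per cell, since Siglec1 marks the cells that DT could reach in the mice with the receptor. In infiltrating macrophage-like cells of WT mice (388 with and 1221 without a UMI), Ms4a7 was at 761 CPM with and 499 CPM without Siglec1 (log2 ratio 0.61, 0.51 to 0.70), and Ms4a4c at 2110 and 1800 CPM (0.23, 0.18 to 0.29). Ms4a6b (0.00, -0.10 to 0.10) and Ms4a6c (-0.02, -0.09 to 0.05) had intervals that included 0. In CD169-DTR mice (88 and 569 cells) the order was another: Ms4a4c and Ms4a6d were 0.71 higher with Siglec1 (0.57 to 0.85 and 0.54 to 0.88), Ms4a6b 0.50 (0.28 to 0.70) and Ms4a7 0.23 (0.05 to 0.41). A cell without a Siglec1 UMI can still express the gene at this depth. The split was not made within clusters, and Siglec1 was at 52.3 CPM in C2, 28.9 CPM in C4 and 3.07 CPM in C19 of WT mice. The part of the cluster mix in these ratios was not tested.

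In microglia-like cells the same split gave wider differences for Ms4a7, Ms4a4c and Ms4a6c. It pooled clusters that differ in Siglec1, which in WT mice was at 4.63 CPM in C0, 47.2 CPM in C6 and 23.9 CPM in C11. Free RNA was estimated at 49.9 of the 119 CPM of Ms4a4c and 9.68 of the 58.6 CPM of Ms4a7 in WT microglia-like cells. It was not estimated for Siglec1, and the paper did not detect CD169 protein in microglia of the normal brain. The parts of the cluster mix, of free RNA and of other cells' RNA in the same droplets were not tested. In WT mice (603 with and 3503 without a UMI) Ms4a7 was at 119 against 29.4 CPM, a log2 ratio of 2.01 (1.80 to 2.22), Ms4a4c at 244 against 83.4 CPM (1.55, 1.41 to 1.69) and Ms4a6c at 273 against 133 CPM (1.04, 0.92 to 1.16). In CD169-DTR mice (236 and 4571 cells) Ms4a7 was at 44.3 against 7.49 CPM (2.56, 2.06 to 3.04), Ms4a4c 1.26 higher (0.97 to 1.54) and Ms4a6c 0.94 higher (0.73 to 1.14). Ms4a6b and Ms4a6d differed by 0.28 to 0.46 in the 2 libraries. The median of all genes was between -0.07 and 0.03 in these splits.

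The members were also compared over all immune-like cells, with and without the mix of cells held equal. Ms4a4c was at 702 CPM in WT and 189 CPM in CD169-DTR immune-like cells, 3.71-fold higher in WT, and 2.17-fold higher when both libraries were given the same class shares. The corresponding folds were 2.88 and 1.6 for Ms4a4b, 2.03 and 1.35 for Ms4a6c, 1.78 and 1.36 for Ms4a6b and 1.59 and 1.28 for Ms4a6d. For Ms4a7 the direction turned, from 1.35 to 0.895. Ms4a1 was 0.6 times the CD169-DTR level, and 0.831 times with equal class shares, and B cell-like cells made up 0.777% of WT and 1.78% of CD169-DTR immune-like cells.

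**Figure D5:**
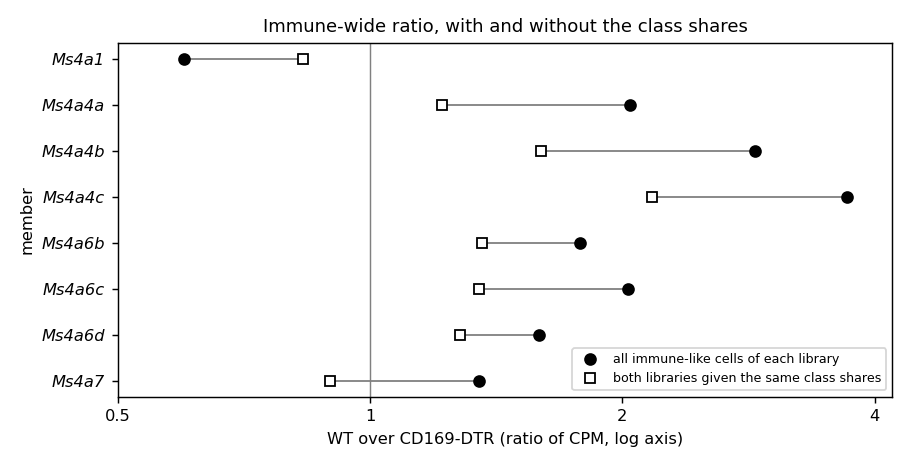
Ratio of CPM, WT over CD169-DTR (log axis), for each member over all immune-like cells (filled circles) and with both libraries given the same class shares (open squares). Every filled circle lies farther from 1 than its square, and for Ms4a7 the 2 lie on opposite sides of 1 (1.35 and 0.895).

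The members' parts in the family changed accordingly. In infiltrating macrophage-like cells the 8 members summed to 4990 CPM in WT and 3410 CPM in CD169-DTR mice. Ms4a4c made up 33.9% of these UMIs in WT and 20.7% in CD169-DTR, Ms4a7 11.9% and 23.1%, and Ms4a6c 23.9% and 25.6%. In cDC2-like cells, which summed to 4630 and 3150 CPM, Ms4a4c made up 40.2% and 31.2% and Ms4a7 3.36% and 9.86%. T cell-like cells summed to 3220 and 2330 CPM and microglia-like cells to 671 and 468 CPM.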

How the data were processed

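The deposited counts were whole-number UMI counts per gene for 6794880 droplet barcodes in each of the 2 libraries, made by the authors with Cell Ranger (software version 3.1.0 per the file headers) against mm10, and no cell filter had been applied. The annotation release and aligner settings are not given in the sources used here. Total depth was 101808996 UMIs (WT) and 84065489 UMIs (CD169-DTR). Here, a barcode counted as a cell from 1000 UMIs on, unless over 17% of them were mitochondrial (249 WT and 218 CD169-DTR barcodes). Ms4a and Tmem176 genes were removed before clustering with Seurat 5.3.0 (R 4.3.3): scale factor 10000, 2000 variable features, integration over 50 dimensions, 30 dimensions and resolution 1, and a second round for T and NK cells with 20 dimensions and resolution 0.5. A cluster was named "-like" from at least 3 detected markers of a list, and left unnamed where other classes' markers led, where over 50% of its cells had high doublet scores or where haemoglobin passed 5% of its UMIs. Doublets were not removed: Scrublet (scanpy 1.11.5) called 259 WT cells and 0 CD169-DTR cells, which is no working threshold, so the top 8% by score were removed as an alternative.

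Counts were summed per class and library and given as CPM with exact Poisson intervals. WT over CD169-DTR was a log2 ratio of CPM with an exact conditional interval, shares of cells came from cells thinned to 4500 UMIs with exact Clopper-Pearson intervals (confidence 95%), and a count of 0 was read as allowing up to 3 counts. Free RNA was estimated from barcodes of 10 to 100 UMIs, scaled by 9 microglial markers in lymphocytes (604 UMIs per WT cell and 483 per CD169-DTR cell). The estimate exceeded the counted level of some members in several classes, so it can overstate the background. With 1 library per group no test was made and no p-value is given. Background percentages for WT against CD169-DTR are over genes with 20 or more UMIs in the class and a UMI in each library. Those for the class with the highest level are over genes with 200 or more UMIs, summed over the classes and both libraries. The interval code was tested on simulated data. Named genes were the 8 members, a list of 13 other family genes, the 3 genes most correlated with each member in log2(CPM + 1) over clusters of 50 or more cells (both libraries summed, genes with 200 or more UMIs), and markers that a member's value is read beside (1 of the correlated genes is not reported here). The members and lists were chosen with earlier results of these data known. The alternatives were a minimum of 2000 UMIs, a 10% mitochondrial limit, doublet removal, libraries merged without integration, resolution 0.5, free RNA subtracted, median-ratio scaling, equal weight per cell or per cluster, removal of macrophage-like cells with a Cd3e or P2ry12 UMI, a background of genes with 100 or more UMIs, and shares thinned to 1000 UMIs or not thinned. Equal depth for the ratios, equal weight per merged cluster and removal of shared barcodes were added. The closing section gives those that moved a count.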

Additional observations from a re-analysis of the deposited data

Results flagged for a closer look

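Ms4a7 had opposite signs in different classes. It was lower in WT than in CD169-DTR mice in infiltrating macrophage-like cells (log2 ratio -0.42) and cDC2-like cells (-1.00), and higher in WT in microglia-like cells (1.94) and granulocyte-like cells (4.09). The difference between classes was not tested, since each group is 1 library. The granulocyte-like value rests on 50 UMIs in WT, 36 of them in 1 cell, and 4 UMIs in CD169-DTR.

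Members were also counted in clusters that were left unnamed and enter no comparison. Ms4a6b was at 138 CPM in a cluster of 146 cells with haemoglobin transcripts, and Ms4a4c at 173 CPM in a cluster of 46 cells led by Acta2 and Tagln, genes of smooth muscle. Among lymphocytes, Ms4a4b was at 740 CPM in 60 cells led by Gzmc and Xcl1 and at 1210 CPM in 35 cells led by mast cell proteases, and Ms4a4c at 836 CPM in 41 cells led by Lyz1 and Tnfrsf4. High doublet scores marked 95%, 54.3% and 97.6% of the cells of these 3 clusters.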

How the results depend on the processing

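No paired analysis was possible because each group is 1 library of pooled mice, and leaving out a replicate was not possible for the same reason. Over 336 values of members by class under the alternatives, 269 moved by less than their interval, 67 moved by more and 0 changed sign with an interval beyond 0. The setting of genes with 100 or more UMIs could not move a value, since it changes only which genes are counted. Removal of the 21 shared barcodes could hardly move one. The count of members higher in WT by 1.5-fold or more in infiltrating macrophage-like cells went from 2 to 1 when merged clusters had equal weight. In microglia-like cells the count lower in WT went from 1 to 0 with doublets removed, free RNA subtracted, genes of 100 or more UMIs, or cells thinned to 4500 UMIs, and in cDC2-like cells from 1 to 2 with doublets removed. In T cell-like cells the count higher in WT went from 2 to 4 with libraries merged, with resolution 0.5 and with equal weight per merged cluster, all without the second round of lymphocyte clustering, and to 1 with free RNA subtracted. Members with a UMI in 50% or more of infiltrating macrophage-like cells went from 5 to 2 (WT) and 1 (CD169-DTR) when thinned to 1000 UMIs. The causes were not tested. In infiltrating macrophage-like cells the log2 ratio ranged from 0.50 to 1.30 for Ms4a4c and from -0.44 to -0.11 for Ms4a7, and in microglia-like cells from 1.60 to 2.17 for Ms4a7. Ms4a4b was highest in NK cell-like cells (1570 to 1840 CPM) in place of T cell-like cells with libraries merged, resolution 0.5 or equal weight per cell. The equal-depth, equal-weight merged and shared-barcode alternatives were added after the data were seen.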

Other observations

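Among 13 other genes of the family, Ms4a2, the beta chain of the mast cell receptor for IgE, was read mostly in mast cell or basophil-like cells, at 329 CPM in WT (111 UMIs in 54 cells) and 445 CPM in CD169-DTR mice (39 UMIs in 13 cells). Infiltrating macrophage-like and microglia-like cells of both libraries held 0 Ms4a2 UMIs. Ms4a8a and Ms4a14 had their highest level in infiltrating macrophage-like cells, at 23.5 and 19.5 CPM in WT and 19.9 and 16.8 CPM in CD169-DTR mice, against 10.9 and 8.1 CPM of Ms4a4a. Ms4a3, a gene of granulocyte and monocyte progenitors, was scarce, with 4 UMIs in WT and 38 in CD169-DTR cells, and Ms4a4d (19 and 6 UMIs) and Ms4a15 (13 and 2) were scarcer still. Ms4a5, Ms4a10, Ms4a12, Ms4a13 and Ms4a18 were at 0 UMIs in the cells of both libraries.

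Tmem176a and Tmem176b, the relatives outside the cluster on chromosome 19, were more abundant and differently placed. Tmem176b was highest in gamma-delta T cell-like cells (1040 CPM, both libraries summed) and Tmem176a in migratory DC-like cells (1030 CPM). In microglia-like cells Tmem176a was at 237 CPM in WT and 239 CPM in CD169-DTR mice and Tmem176b at 377 and 399 CPM, whereas infiltrating macrophage-like cells were at 119 and 148 CPM and at 155 and 219 CPM.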
